A study of Mus musculus with 2 samples.

Results

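Keratin genes, whose symbol is Krt followed by digits and at most 1 letter, were followed across 2 two-colour arrays of mouse embryonic stem cells (ESCs). Keratin-associated protein genes (Krtap) and 1 keratin pseudogene were left out, and membership used no measured value. The gene table held 53 such keratin genes, 52 of them had a probe on the array, and 33 were measured, meaning that the brightest probe was well above background in the same channel on both arrays. These 33 stood among 16067 measured genes. The type I cluster on chromosome 11 had 27 keratin genes with a probe, of which 18 were measured, and the type II cluster on chromosome 15 had 24, of which 14 were measured. Krt18 encodes a type I protein but lies beside the type II cluster on chromosome 15, and is given on its own.

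ESCs with HDAC6 overexpression gave the Cy5-labelled RNA and wild-type (WT) ESCs gave the Cy3-labelled RNA of each array. All cells were of the B6C3F1 strain, were at passage 26 and had been grown with the cytokine LIF on mitomycin C-treated mouse embryonic fibroblasts, called feeders. How HDAC6, a mainly cytoplasmic deacetylase, was overexpressed and whether the cells were 1 clone are not given in the labels. The arrays are called biological replicates 1 and 2, but the deposited files number the material alike on both, so p-values measure the spread between these 2 arrays, which may be technical. The dyes were never swapped, so a dye effect on a probe cannot be told apart from a difference between the cells.

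Keratins are the intermediate filament proteins of epithelial cells. A keratin filament is built from heterodimers of a type I (acidic) and a type II (basic or neutral) chain, so that epithelia express the genes in partner pairs, and a chain without a partner is usually unstable. The mouse keeps the genes of each type in a cluster of its own, with Krt18 as the exception. Krt8 and Krt18 are the first keratins of the mouse embryo and mark the trophectoderm, while most other keratins belong to skin, hair, cornea and mucosa.

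Each array gave a processed signal per channel, background-subtracted and dye-normalized by the scanner software, in arbitrary intensity units. A log2 ratio below is the log2 of the HDAC6 overexpression signal over the WT signal, so that a positive value is higher with HDAC6 overexpression. Means are over both arrays with their SD (n = 2 throughout). Well above background were 69.4% of the spots in the overexpression channel and 69.6% in the WT channel of replicate 1, and 69.3% and 68.8% in replicate 2. Hdac6 itself had signals of 18275 and 17344 with HDAC6 overexpression, against 16389 and 17806 in WT, a log2 ratio of 0.060 ± 0.14 that did not pass the test (limma adjusted p = 0.64). Whether this probe can see the introduced sequence is not known here. All 14 markers of pluripotent cells that were listed were well above background in both channels. Across all genes, limma with an adjusted p under 0.05 called 51.2%, of which 3414 genes were higher (21.2%) and 4810 lower (29.9%) with HDAC6 overexpression. The share called in either direction was 76.4% on chromosome 11 and 45.0% on chromosome 15. A ratio of the same sign on both arrays was common, with 7817 of 16067 genes below 0 on both and 5977 above 0 on both. How many of all genes had no overlap between the channels was not counted.

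The type I cluster was lower with HDAC6 overexpression and the type II cluster was slightly higher. Of the 18 measured type I genes of chromosome 11, 11 fell, 0 rose and 7 did not pass the limma test. Of the 14 measured type II genes of chromosome 15, 7 rose, 3 fell and 4 did not pass. The type I cluster's median ratio was -0.56 on the log2 scale (-0.81 and -0.38 on replicates 1 and 2), and that of the type II cluster was 0.28 (0.23 and 0.30). The difference between these medians, type I minus type II, was -0.83 (-1.04 in replicate 1 and -0.68 in replicate 2). The genes of a cluster are not replicates and there were 2 arrays, so this difference is a description with no test.

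The count of type I genes that fell has to be read against chromosome 11. Among all 1340 measured genes of that chromosome, 67.0% fell and 9.40% rose, and the 1322 that are not keratins had a median of -0.51 on the log2 scale (-0.52 and -0.50 on the 2 arrays), the lowest of the 19 autosomes. The share of type I keratins that fell, 61.1%, was near that of their chromosome. On chromosome 15, 24.0% of 646 measured genes fell and 21.1% rose, and the 631 other genes had a median of -0.016. The 7 of 14 type II keratins that rose are set against that share, and the type II median lay above that of the chromosome. The medians of the other genes, chromosome 11 minus chromosome 15, differed by -0.50. Gene type and chromosome are the same division for every keratin but Krt18, so they cannot be told apart by the clusters alone.

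**Figure D1:**
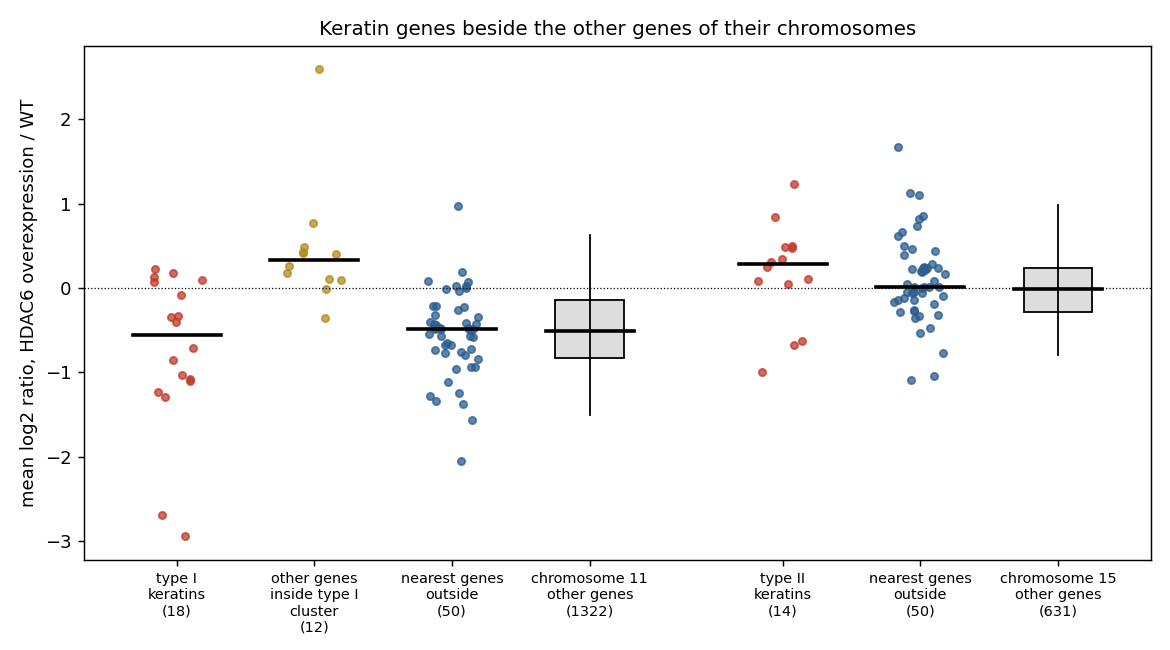
Mean log2 ratio (HDAC6 overexpression over WT, vertical axis) of the keratins of each cluster beside other measured genes of the same chromosome. Points are genes, thick lines medians, boxes the quartiles of the other genes of the chromosome with whiskers from the 5th to the 95th percentile, and counts of genes are in parentheses. The type I median of -0.56 sits near the chromosome 11 median of -0.51, and the type II median of 0.28 lies above the chromosome 15 median of -0.016.

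Krt18 is the 1 measured type I gene that lies on chromosome 15. It had signals of 27275 and 30101 with HDAC6 overexpression, against 23394 and 22770 in WT. Both overexpression signals lay above both WT signals, and the log2 ratio was 0.31 ± 0.13 (limma adjusted p = 0.042), a fold of 1.24. This type I gene rose, as did 7 of the 14 type II genes and 21.1% of all measured genes of its chromosome. Of the 18 type I genes of chromosome 11, 0 rose. With 1 such gene, protein type and chromosome cannot be told apart. The call was lost when dim genes were kept in the test (limma adjusted p = 0.066). The log2 ratio was 0.41 (limma adjusted p = 0.0033) with normexp background correction and loess, and 1.06 (limma adjusted p = 2.8e-06) with normexp and median centring in place of loess, so its size depends on the normalization. Krt8, its type II partner, had 16285 and 19721 with HDAC6 overexpression, against 13769 and 12172 in WT. Its log2 ratio was 0.47 ± 0.32 (limma adjusted p = 0.030), 0.24 on replicate 1 and 0.70 on replicate 2. With normexp and median centring the log2 ratio of Krt8 was 0.84. The partners therefore moved the same way, with a difference, Krt18 minus Krt8, of -0.021 on replicate 1 and -0.29 on replicate 2.

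Among the other keratins of simple epithelia, Krt19 and Krt20 of chromosome 11 fell, Krt23 of chromosome 11 did not pass and Krt7 rose. Krt19, the smallest keratin, which lacks the tail domain, had 10866 and 11552 with HDAC6 overexpression, against 26510 and 26009 in WT. The groups did not overlap, and Krt19 fell 2.34-fold (log2 ratio -1.23 ± 0.082, limma adjusted p = 4.9e-04). With normexp the log2 ratio of Krt19 was -1.24 with loess and -0.78 with median centring, so the size of its fall depends on the normalization. Krt20, a keratin of the intestinal epithelium and of the superficial cells of the urothelium, had 1365 and 1640 with HDAC6 overexpression, against 3204 and 3209 in WT, and fell 2.14-fold (-1.10 ± 0.19, limma adjusted p = 9.3e-04). Krt23 had a log2 ratio of -0.77 on replicate 1 and 0.099 on replicate 2 and did not pass the test. Krt7, a type II keratin of ducts and other simple epithelia, had 4829 and 4940 with HDAC6 overexpression, against 2223 and 1948 in WT, and rose 2.35-fold (1.23 ± 0.16, limma adjusted p = 6.0e-04). Krt7 was the only measured type II keratin at least 2-fold higher on both arrays, a change met by 3.04% of all genes and 3.25% of those of chromosome 15. The same fall was met by 0 type II keratins and by 2.48% of the genes of chromosome 15, and the same rise by 0 type I keratins and 1.49% of the genes of chromosome 11.

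The largest falls of the family were those of Krt9 and Krt12. Krt9, the keratin of palm and sole epidermis, had 67.7 and 54.7 with HDAC6 overexpression, against 428 and 508 in WT. It fell 7.66-fold (log2 ratio -2.94 ± 0.39, limma adjusted p = 1.6e-04). With normexp the log2 ratio of Krt9 was -2.12 with loess and -2.16 with median centring, smaller falls than those of Krt12 under the same settings (-2.40 and -2.50). Krt12, the keratin of the corneal epithelium, had 239 and 190 with HDAC6 overexpression, against 1381 and 1375 in WT. It fell 6.46-fold (-2.69 ± 0.23, limma adjusted p = 9.6e-05). In both genes the WT signals were far above the overexpression signals on each array. A dimmer probe of Krt12 was not well above background with HDAC6 overexpression (26.3 and 9.95), against 192 and 154 in WT. By that probe, which was not in the test, Krt12 was at least 4.10-fold lower, a bound that sets the WT mean against the lowest signals still well above background and is open to dye bias.

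Krt42, a type I keratin of the mouse whose older names include ecat6, had 6461 and 7286 with HDAC6 overexpression, against 17128 and 16383 in WT, and fell 2.44-fold (-1.29 ± 0.17, limma adjusted p = 5.6e-04). Krt28, of the hair follicle's inner root sheath, had 221 and 219 with HDAC6 overexpression, against 442 and 489 in WT, and fell 2.12-fold (-1.08 ± 0.11, limma adjusted p = 7.4e-04). For these genes too, no overexpression signal reached a WT signal. Krt27, of the same sheath, fell (-1.03), as did Krt16 (-0.85) and Krt17 (-0.40), which are induced in wounded and hyperproliferating epidermis. Krt13, of mucosal epithelium, fell by its brighter probe (-0.71), and its dimmer probe had -0.20 on replicate 1 and 0.36 on replicate 2. Krt24 fell with a smaller ratio (-0.33). Together with Krt9, Krt12, Krt19 and Krt20, these are the 11 type I genes that fell. With Krt9, Krt12, Krt19, Krt28 and Krt42, 5 of the 18 measured type I genes had WT signals at or above 2-fold the overexpression signals on both arrays, a fall met by 4.40% of all genes and by 11.3% of the genes of chromosome 11.

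The type I genes that did not pass included the best-known partners of epidermis. Krt14, of the basal layer, had a log2 ratio of -0.086, Krt15, also basal, 0.068, and Krt10, of the layers above, 0.13. A dimmer probe of Krt10 had -0.33. Krt26 had 0.18, Krt36 0.10 and Krt222 0.23, the highest ratio of the type I cluster. The Krt222 probe used had 32732 and 35443 with HDAC6 overexpression, against 28363 and 29912 in WT. A second Krt222 probe was not well above background in either channel (8.67 and 8.99, against 8.67 and 9.80 in WT). Which of the 2 probes reads Krt222 was not tested. Krt36 differed more between arrays than between channels, with 67.2 and 249 with HDAC6 overexpression, against 73.8 and 197 in WT. Krt222 was called higher (0.44, limma adjusted p = 0.0024) when the raw intensities were corrected by normexp and normalized by loess, and higher still with normexp and median centring (limma adjusted p = 1.3e-06). With normexp and loess, 22.1% of all genes were called higher and 34.5% lower. A stricter limma test, against a 1.5-fold change, called 4.16% of all genes higher and 5.89% lower, and of the keratins 1 higher and 7 lower.

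**Figure D2:**
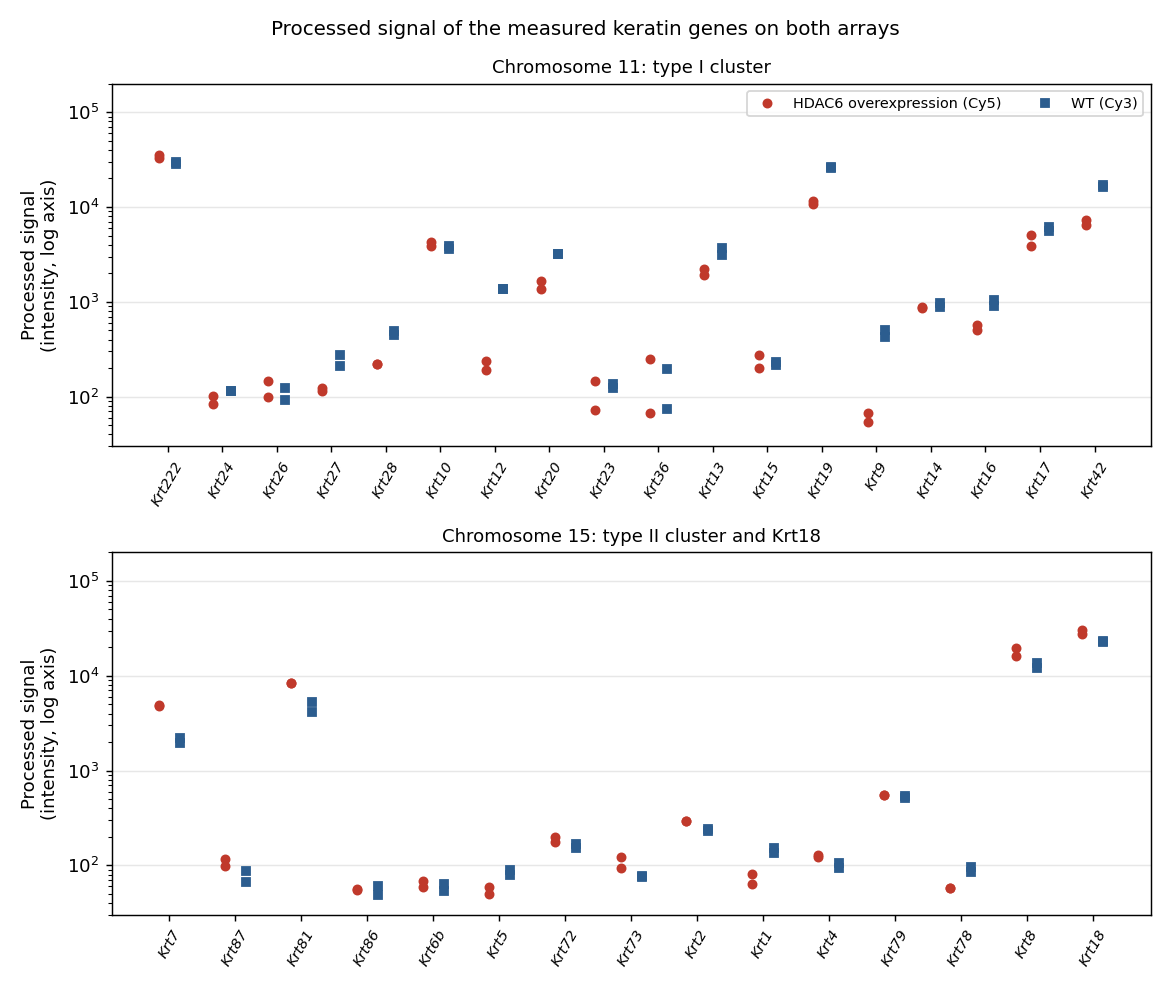
Processed signal (log axis, intensity units) of each measured keratin on both arrays, with HDAC6 overexpression as red circles left of WT as blue squares, and genes in their order along the chromosome. Krt9 and Krt12 show the widest gaps between channels, with 67.7 and 54.7 for Krt9 with HDAC6 overexpression, against 428 and 508 in WT.

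In the type II cluster, the 2 hair keratins Krt81 and Krt87 were among the genes that rose, and suprabasal epidermis and mucosa had 1 gene each that rose and 1 that fell. Krt81, a hair keratin, had 8331 and 8387 with HDAC6 overexpression, against 5253 and 4142 in WT, and rose 1.79-fold (0.84 ± 0.25, limma adjusted p = 0.0028). Krt87, another hair keratin, had 117 and 98.3 with HDAC6 overexpression, against 86.7 and 66.7 in WT (0.50 ± 0.091, limma adjusted p = 0.0080). The overexpression signals lay above the WT signals for both hair keratins. The call of Krt87 was lost with normexp and loess (0.20, limma adjusted p = 0.080). Krt73, of the inner root sheath, rose (0.49), as did Krt4, of mucosal epithelium (0.34), and Krt2, of the upper epidermis (0.31). With normexp and loess these had 0.29, 0.14 and 0.18 and none of them passed.

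Krt1, Krt5 and Krt78 fell. Krt1, of the suprabasal epidermis, had 80.8 and 64.1 with HDAC6 overexpression, against 152 and 135 in WT, with log2 ratios of -0.91 and -1.08 (SD 0.12, limma adjusted p = 9.5e-04). Krt5, of the basal layer, had 59.6 and 49.8 with HDAC6 overexpression, against 90.0 and 79.0 in WT (-0.63 ± 0.051, limma adjusted p = 0.0032). Krt78 had 57.3 and 57.6 with HDAC6 overexpression, against 86.2 and 96.8 in WT (-0.67 ± 0.11, limma adjusted p = 0.0031). Each of these falls held on both arrays with no overlap between channels, while 7817 of all 16067 genes were below 0 on both arrays. A further probe of Krt5 was not well above background in either channel, and the mean over both Krt5 probes was 0.022. Krt72 (0.25), Krt6b (0.11), Krt79 (0.086) and Krt86 (0.048) did not pass, and the WT signal of Krt86 was well above background on 1 of the 2 arrays. With normexp and loess Krt86 was called higher (0.25, limma adjusted p = 0.035).

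**Figure D3:**
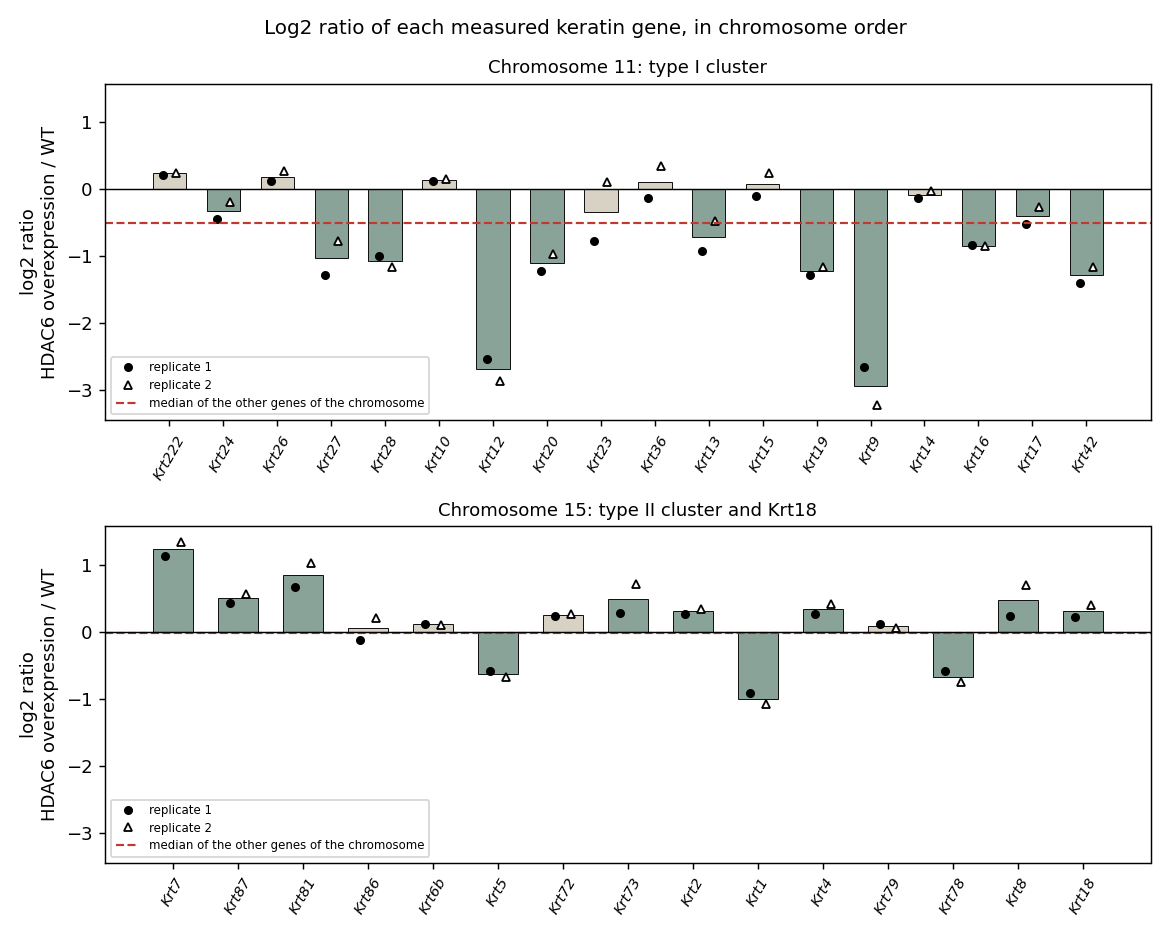
Log2 ratio of HDAC6 overexpression over WT (vertical axis) for each measured keratin in chromosome order, with bars for the mean, filled circles for replicate 1 and open triangles for replicate 2. Green bars passed the limma test, beige bars did not, and the dashed red line is the median of the chromosome's other genes (-0.51 on chromosome 11 and -0.016 on chromosome 15).

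Partner pairs were set side by side as type I minus type II. For Krt19 and Krt7, which can pair in simple epithelia, the difference of log2 ratios was -2.46 (-2.41 on replicate 1 and -2.51 on replicate 2). For Krt13 and Krt4 it was -1.04, and for Krt16 and Krt6b -0.96. The sign was the opposite for the epidermal partners, with 1.12 for Krt10 and Krt1 and 0.54 for Krt14 and Krt5. Each of these signs was the same on both arrays. The sign for Krt14 and Krt5 rests on the brighter Krt5 probe. With the mean over both Krt5 probes, Krt5 had 0.022, above the -0.086 of Krt14, so that sign was not kept. Krt10, Krt14 and Krt6b did not pass the test themselves. With chromosome medians subtracted, the differences were -1.96 for Krt19 and Krt7, -0.55 for Krt13 and Krt4, -0.46 for Krt16 and Krt6b, 1.62 for Krt10 and Krt1 and 1.04 for Krt14 and Krt5. The Krt18 and Krt8 pair, whose genes are both on chromosome 15, had the smallest difference of the 6 pairs, -0.16 both with and without the subtraction. These differences are descriptions of these arrays.

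With each chromosome's median subtracted on each array before the fit, the type I cluster divided. Its median was then -0.043, with -0.28 on replicate 1 and 0.12 on replicate 2, so the arrays differed in sign. Of its 18 genes 8 were lower, 6 higher and 4 did not pass, while 22.8% of all genes were called lower and 23.6% higher. Among all genes of chromosome 11, 25.4% were then lower and 26.9% higher. Below their chromosome were Krt9 (-2.43), Krt12 (-2.18), Krt42 (-0.78), Krt19 (-0.72), Krt20 (-0.59), Krt28 (-0.57), Krt27 (-0.52) and Krt16 (-0.33). Above it were Krt222 (0.74), Krt26 (0.70), Krt10 (0.64), Krt36 (0.61), Krt15 (0.58) and Krt14 (0.43). Krt13, Krt17, Krt23 and Krt24 did not pass. In the type II cluster 7 genes were higher and 3 lower, with a median of 0.29, while 21.4% of the genes of chromosome 15 were higher and 22.3% lower. The difference between the cluster medians, type I minus type II, shrank to -0.34.

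**Figure D4:**
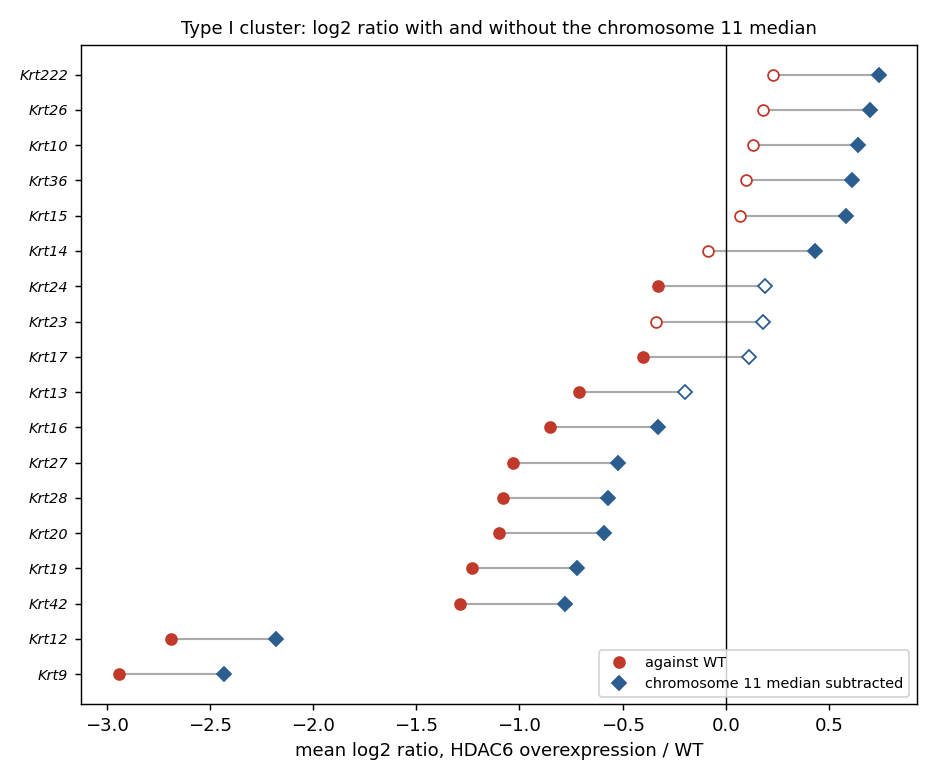
Mean log2 ratio (horizontal axis) of each type I keratin of chromosome 11, as HDAC6 overexpression over WT (red circles) and after the median of chromosome 11 was subtracted on each array (blue diamonds). Filled symbols passed the limma test. The subtraction took the cluster median to -0.043, against -0.56 without it, with 9 genes above 0 and 9 below, of which 6 and 8 passed the test.

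The nearest genes outside the clusters gave the same picture as the chromosomes, but the other genes inside the type I cluster did not. Of those 12 measured genes, 6 rose and 0 fell, with a median log2 ratio of 0.33, as given in the last section. Of the 50 measured genes nearest to the type I cluster, 25 on each side, 36 fell and 1 rose, with a median log2 ratio of -0.49. Of the 50 nearest to the type II cluster, 12 rose and 8 fell, with a median of 0.015. The gene order was taken from RefSeq assembly GRCm38.p6.

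The other 19 keratins with a probe were not measured. Among them were the type I genes Krt25, Krt31 to Krt35 and Krt39 and Krt40, with signals of 8.10 to 38.7 with HDAC6 overexpression, against 8.32 to 54.4 in WT. The 10 type II genes were Krt6a, Krt71, Krt75, Krt76, Krt77, Krt80, Krt82, Krt84, Krt88 and Krt90, with 8.22 to 38.1 with HDAC6 overexpression, against 8.10 to 36.9 in WT. Many of these belong to the hair shaft and the root sheath, and no ratio is given for them. Counts above are over the measured genes only.

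Promoters are shown for the 3 type I genes of chromosome 11 with the lowest ratios and for the 3 keratins of simple epithelia on chromosome 15 that rose, so that the regions before oppositely moving genes can be read side by side. The sequences are RefSeq's (GRCm38.p6), from 250 bases before the annotated start to 25 after it, in the direction of the gene. RefSeq's table held promoters for 36 of the 52 keratin genes with a probe. Capitals mark matches on either strand to TATAAA (the TATA box), GGGCGG (the GC box bound by Sp1), TGANTCA (the AP-1 site) and CCAAT. The 2 TATAAA matches of Krt8 overlap each other.
Krt9 (chr11:100193222-100193496, - strand): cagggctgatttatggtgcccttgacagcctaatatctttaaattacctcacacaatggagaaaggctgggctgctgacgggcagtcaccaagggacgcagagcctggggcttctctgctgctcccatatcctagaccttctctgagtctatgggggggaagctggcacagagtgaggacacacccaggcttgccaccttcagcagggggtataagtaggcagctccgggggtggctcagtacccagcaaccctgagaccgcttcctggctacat
Krt12 (chr11:99422235-99422509, - strand): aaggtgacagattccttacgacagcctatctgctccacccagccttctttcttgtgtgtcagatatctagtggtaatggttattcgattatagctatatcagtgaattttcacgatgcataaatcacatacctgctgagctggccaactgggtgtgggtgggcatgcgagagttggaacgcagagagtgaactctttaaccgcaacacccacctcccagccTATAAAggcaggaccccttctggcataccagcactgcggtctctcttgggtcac
Krt42 (chr11:100269927-100270201, - strand): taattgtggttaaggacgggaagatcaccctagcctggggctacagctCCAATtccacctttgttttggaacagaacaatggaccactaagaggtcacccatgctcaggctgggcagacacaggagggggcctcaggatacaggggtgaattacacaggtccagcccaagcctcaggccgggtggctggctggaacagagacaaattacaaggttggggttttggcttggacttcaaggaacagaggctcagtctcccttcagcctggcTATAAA
Krt18 (chr15:102027966-102028240, + strand): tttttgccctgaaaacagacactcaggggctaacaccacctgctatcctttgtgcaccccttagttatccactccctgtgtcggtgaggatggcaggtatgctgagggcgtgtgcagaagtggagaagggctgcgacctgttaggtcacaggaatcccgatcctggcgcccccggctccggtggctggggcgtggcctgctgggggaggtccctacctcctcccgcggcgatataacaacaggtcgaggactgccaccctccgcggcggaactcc
Krt7 (chr15:101412153-101412427, + strand): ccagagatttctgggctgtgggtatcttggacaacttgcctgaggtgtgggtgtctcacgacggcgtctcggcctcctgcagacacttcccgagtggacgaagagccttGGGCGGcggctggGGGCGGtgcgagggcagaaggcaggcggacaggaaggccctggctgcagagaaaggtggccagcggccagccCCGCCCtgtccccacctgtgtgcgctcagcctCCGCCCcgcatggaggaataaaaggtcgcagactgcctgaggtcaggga
Krt8 (chr15:102004318-102004592, - strand): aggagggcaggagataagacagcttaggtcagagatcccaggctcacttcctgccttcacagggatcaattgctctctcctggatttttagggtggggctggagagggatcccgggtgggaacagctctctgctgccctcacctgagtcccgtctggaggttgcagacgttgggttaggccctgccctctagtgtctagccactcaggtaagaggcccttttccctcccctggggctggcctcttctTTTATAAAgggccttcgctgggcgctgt
In Krt12 the TATAAA match begins 29 bases before the start, in Krt42 20 bases after it, and in Krt8 3 bases and 1 base before it on opposite strands, while the windows of Krt9 and Krt18 hold none of the 4 motifs. Krt7 alone of the 6 holds GC boxes, 4 in all. Over windows of 300 bases, of which a gene can have more than 1, TATAAA was found in 13 of 21 type I windows and 6 of 15 type II windows, Krt18 left out, and in 13.6% of all 32851 promoters. GGGCGG was found in 0 of the 21 and 2 of the 15, and in 35.7% of all promoters. TGANTCA was found in 2 and 0 (7.81% of all) and CCAAT in 9 and 6 (37.4% of all). A match is only a match of letters and was not related to the ratios.

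Genes that work with keratins did not move as 1 group. Of 18 measured linker and desmosome genes, which tie keratin filaments to cell junctions, 6 rose, 5 fell and 7 did not pass, with a median log2 ratio of 0.0059. Dsp, which encodes the desmosome's keratin anchor desmoplakin, had 6051 and 6848 with HDAC6 overexpression, against 3008 and 3409 in WT (1.01 ± 0.0013, limma adjusted p = 7.5e-04). Evpl, the gene of envoplakin, which lies on chromosome 11, had 2080 and 2089 with HDAC6 overexpression, against 4391 and 5058 in WT (-1.18 ± 0.14, limma adjusted p = 6.4e-04). Dst, on chromosome 1, also rose (1.00), and Dsc2, on chromosome 18, also fell (-0.69). Of the 18 genes, 2 lie on chromosome 11. Of 15 measured genes of other intermediate filaments, 2 rose and 7 fell (median -0.28). Of 19 measured epithelial markers 8 rose and 3 fell (median 0.14), and of 19 measured transcription factor genes linked to keratin expression 10 rose and 5 fell (median 0.42), against 21.2% and 29.9% of all genes.

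Markers of other cell types were read in the same RNA, in which 21.2% of all genes were higher and 29.9% lower. Of 20 measured primitive endoderm markers, 19 were higher and 1 lower, with a summed signal of 244433 and 256559 with HDAC6 overexpression, against 50740 and 57943 in WT, and of these genes Apoa1 and Ttr were not well above background in WT. Of 20 measured fibroblast markers, 19 were higher, with a summed signal of 233904 and 307755 with HDAC6 overexpression, against 120387 and 114849 in WT. Of 17 measured trophectoderm markers, 14 were higher and 1 lower, but that list includes Krt7, Krt8 and Krt18 among the genes that rose and Krt19 as the gene that fell. Its summed signal was 135837 and 149957 with HDAC6 overexpression, against 114721 and 120182 in WT. Of 12 measured markers of surface ectoderm and epidermis, which include 5 keratins, 3 rose and 4 fell. These ectoderm counts lay near the shares of all genes. The part of these cell types in the keratin ratios was not tested. In bulk RNA, fewer cells of a type and less RNA per cell cannot be told apart.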

How the data were processed

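Gene expression was measured on 2 Agilent two-colour arrays, with HDAC6 overexpression in Cy5 and WT in Cy3. Agilent Feature Extraction 11.5.1.1 read the images, per the file headers. The deposited files hold raw median intensity values and processed intensity values, which are background-subtracted and dye-normalized. They also hold a deposited log10 ratio and a deposited p-value per spot. The deposited series table holds log2 values. Against the scanner ratios it correlated at -1.000 on both arrays with slopes of -1.000, so its values are those of WT over overexpression. The medians of its columns were -0.007 and 0.062. With the sign turned, it gave the gene counts of the scanner ratios (3414 higher and 4810 lower). The mean ratios of the 14 named keratins were also the same, so no centring beyond that of the scanner ratios was seen.

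From the processed intensities, outlier-marked spots (269 and 313) were dropped, saturation was marked on 0 spots, and the log2 ratios of a probe's spots were averaged. Of 55681 probes, 26762 were paired with 1 gene symbol, 0 with several and 28919 with none, by matching accessions without versions to RefSeq genes (GRCm38.p6). The array grid was built on another assembly, so that table gave names, chromosomes, order and promoters only. Each gene was represented by its brightest probe. The ratio against 0 was tested with limma 3.58.1 under R 4.3.3 (two-sided, Benjamini-Hochberg over 16067 genes). The prior had 4.59 degrees of freedom beside 1 residual degree of freedom. The number of arrays limits the precision, with a typical SE of 0.094. The fit was tested on simulated data. Both arrays were on 1 slide, so there was no batch to test.

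Probe sequences were not used here, so signal shared between near-identical keratins, such as Krt14, Krt16 and Krt17 or Krt81, Krt86 and Krt87, was not tested. The genes and gene lists were chosen with earlier results of these data known. Named with full values were Krt7, Krt8, Krt18 and Krt19, and up to 6 genes of each type with the largest ratios past the threshold. The alternatives tried are given with their effect in the closing section.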

Additional observations from a re-analysis of the deposited data

How the results depend on the processing

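Under every alternative run the type I median of the mean ratios stayed below 0 and the type II median above it. With chromosome medians subtracted, however, the type I median was -0.28 on replicate 1 and 0.12 on replicate 2. Its sign there differed between the arrays. The type I median was -0.043 with chromosome medians subtracted, -0.37 with the mean over probes, -0.33 with no filter on dim probes and -0.56 to -0.55 under the other processing settings. The type II median was 0.16 with normexp and loess, 0.12 with normexp and median centring, and 0.099 with no filter on dim probes. The difference, type I minus type II, was -0.34 with chromosome medians subtracted and -0.42 with no filter. Without 1 replicate, the type I median was -0.81 to -0.38, the type II median 0.23 to 0.30 and the difference -1.04 to -0.68, values with no test because 1 array leaves no residual degree of freedom. Chromosome medians took the keratins called higher to 14, with 6 of the type I cluster, 7 of the type II cluster and Krt18, against 23.6% of all genes. Normexp with loess called 1 of 18 type I and 4 of 14 type II cluster genes higher, against 22.1% of all genes. Normexp with median centring called 1 type I and 5 type II cluster genes higher, against 4876 of all 16067 genes. The type II count thus lay nearer the share of all genes under both settings than in the main fit, with 7 of 14 against 21.2%. A limma test against a 1.5-fold change called 669 genes higher and 947 lower, among them 1 keratin higher and 7 lower (type I 6 lower, type II 1 higher and 1 lower). With a 2-fold minimum on each array the counts were 489 genes higher and 707 lower, among them 1 keratin higher and 5 lower (type I 5 lower, type II 1 higher and 0 lower). The mean over probes called 9 type I and 2 type II cluster genes lower, among 4692 of all genes called lower. Krt28 then had -0.70 (limma adjusted p = 0.035), and its dimmer probe, not well above background in either channel, had -1.16 and 0.52. Of 14 named keratins, Krt5 turned to 0.022 with the mean over its probes, and all 14 kept their direction under the other alternatives. The 1.5-fold test ended the call of 6 of them. The deposited series table and keeping outlier-marked spots changed no call of the 14. Gene names from a name column were not run, because that column is not in the files used here. Each array holds RNA of both groups of ESCs and gives 1 ratio, so the fit already pairs overexpression with WT within each array. Depth as signal over background limits the 19 keratins not measured, and dim genes such as Krt1, Krt5 and Krt78 have ratios that shrink with normexp, to -0.69, -0.35 and -0.60.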

Other observations

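Inside the span of the type I cluster lie genes that are not keratins, most of them of the Krtap family, whose products embed hair keratins. Of 12 such measured genes 6 were higher and 0 lower, against 9.40% higher and 67.0% lower among all genes of chromosome 11. Their median log2 ratio was 0.33, while the 50 nearest genes outside the cluster had -0.49. The 7 measured Krtap genes had a median of 0.40, with 4 higher and 0 lower. One of them, Krtap31-2, had a lowest WT signal of 8.11, was not well above background in WT, and no ratio is given for it. Krtap31-2 passed the filter through the overexpression channel alone. It is still among the 6 and the 4 called higher, and both medians include it. Krtap1-4 had 0.48 and Krtap31-1 had 0.40, and Gm11559 and Gm11937 had 0.42 and 0.43. These genes were chosen for their place inside the cluster after the ratios of chromosome 11 were known, and no test was made of their difference from it.

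Of 11 measured genes of the cornified envelope, the protein shell of dead epidermal cells, 5 were called higher and 2 lower, with a median of 0.28, against 21.2% and 29.9% of all genes. Casp14, one of those called higher, was not well above background in WT and passed the filter through the overexpression channel alone. Tgm1, a transglutaminase that cross-links the shell, had 9519 and 12797 with HDAC6 overexpression, against 4619 and 4932 in WT (1.21 ± 0.24, limma adjusted p = 8.9e-04). Ivl, the gene of the shell protein involucrin, had 130 and 266 with HDAC6 overexpression, against 87.7 and 77.8 in WT (1.17 ± 0.85, limma adjusted p = 0.016).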
